A study of Rattus norvegicus and Mus musculus with 56 samples.

Results

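Transcripts of the operated-side lumbar dorsal horn of female mice were compared between 3 libraries taken after spared nerve injury (SNI F) and 3 taken after sham surgery (sham F). These 6 libraries were picked by their labels (mouse, sex Female, ipsilateral dorsal horn, treatment SNI or sham) out of 24 mouse libraries, in a series of 56 libraries from mice and rats. All 6 hold poly(A) RNA, extracted on RNeasy columns, from the dorsal horn at L4 to L5 of wild-type C57BL/6 mice on postoperative day 7, and age is not given in the labels. Values from 3 SNI M and 3 sham M libraries (male mice, same side, strain, genotype and day) and from 3 SNI F and 3 sham F libraries of the contralateral, unoperated side are set beside them. The stated purpose of the series was to find what male and female mice and rats share in their dorsal horn response, and where they differ, in the search for pain treatments. The labels state neither how many animals a library holds nor which libraries share an animal, so the p-values below reflect spread among libraries, which may be technical.

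Spared nerve injury severs some branches of the sciatic nerve and leaves another whole, after which the paw stays hypersensitive for weeks. Injured sensory fibres end in the dorsal horn, where microglia, the brain and spinal cord's own macrophages, multiply and change shape within days. In mice, the cytokine CSF1 made by injured sensory neurons acts on its receptor CSF1R on microglia and is needed for this response.

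The 6 libraries held 29283885 to 42900244 reads on genes. Levels are given as CPM, the reads of a gene per mega-read of gene reads in its library after scaling, which takes no account of gene length. Xist, the RNA of the inactive X chromosome, was at 736 to 941 CPM in the SNI F libraries and at 704 to 832 CPM in the sham F libraries, and the Y-linked genes Ddx3y, Eif2s3y, Kdm5d and Uty were at most at 0.184 CPM, as the labels have it. Dorsal horn markers were present in all 6 libraries: Slc17a6, the glutamate transporter gene of excitatory neurons, was at 251 to 283 CPM in SNI F and 235 to 266 CPM in sham F, and Pax2, a transcription factor gene of inhibitory neurons, at 35.3 to 40 CPM in SNI F and 30 to 40.3 CPM in sham F. The summed level of the dorsal root ganglion list was 26.6, 82.7 and 44.6 CPM in SNI F and 137, 64.7 and 67.8 CPM in sham F. Of its members, Mrgprd, a sensory neuron gene, had 0 reads in all 6, and Scn10a and Scn11a reached at most 0.178 CPM. Because the list shares Prph with the motor neuron genes summed below, its sum is not a measure of ganglion tissue alone. Some libraries stood apart in cells of neighbouring tissue. The summed level of 15 motor neuron genes was 395, 508 and 497 CPM in SNI F libraries 1, 2 and 3, against 897, 550 and 719 CPM in sham F libraries 1, 2 and 3. The summed level of 11 neutrophil genes was 13.7, 21.5 and 23.8 CPM in SNI F, against 216, 38.9 and 9.77 CPM in sham F, and that of 12 meningeal fibroblast genes was 318, 331 and 249 CPM in SNI F, against 869, 363 and 309 CPM in sham F. Sham F library 1 was the highest of the 6 in all 3 lists.

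The genes that rose on the operated side included 12 of 17 microglial identity genes. Of 17602 genes tested, 71 were called higher in SNI F (0.403%) and 2 lower (0.0114%) at an adjusted p under 0.05 in limma, and 29 of the 73 differed by more than 2-fold. In each of the 71 every SNI F library lay above every sham F library, which held for 7.14% of all genes, and the reverse order held for 7.2%. The median log2 fold change of the 71 was 0.94, against 0.0014 over all genes. The 71 were picked by their difference between these same libraries, so neither the separation nor the median adds support for it. In bulk tissue, more microglia and more RNA of these genes per microglial cell cannot be told apart. Without the libraries titled 49 to 56, which took library 3 out of both F groups, limma called 0 genes (1635 at an unadjusted p under 0.05), and with the motor neuron level as a covariate it called 1, Itgam. The 71 rises all kept their sign in both fits, with medians of 0.88 and 1.03. The fit without titles 49 to 56 also lost SNI M libraries 2 and 3, so its pooled variance rested on fewer libraries. Its loss of calls cannot be laid to F library 3 alone: leaving out only SNI F library 3 gave 50 calls, and only sham F library 3 gave 45.

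The size of the response varied among the SNI F libraries. Set against the sham F mean, the 71 genes had a median log2 level of 0.75, 1.14 and 0.93 in SNI F libraries 1, 2 and 3, against 0.05, 0.02 and -0.11 in sham F libraries 1, 2 and 3. Because these libraries picked the genes, the medians describe the spread within a group and do not test the difference between groups. Library 1 was the lowest of the SNI F libraries for 65 of the 71 genes and library 2 the highest for 63. Leaving out library 1 raised the number of calls to 108, and leaving out library 2 lowered it to 42, as leaving out sham F library 3 did to 45.

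**Figure D1:**
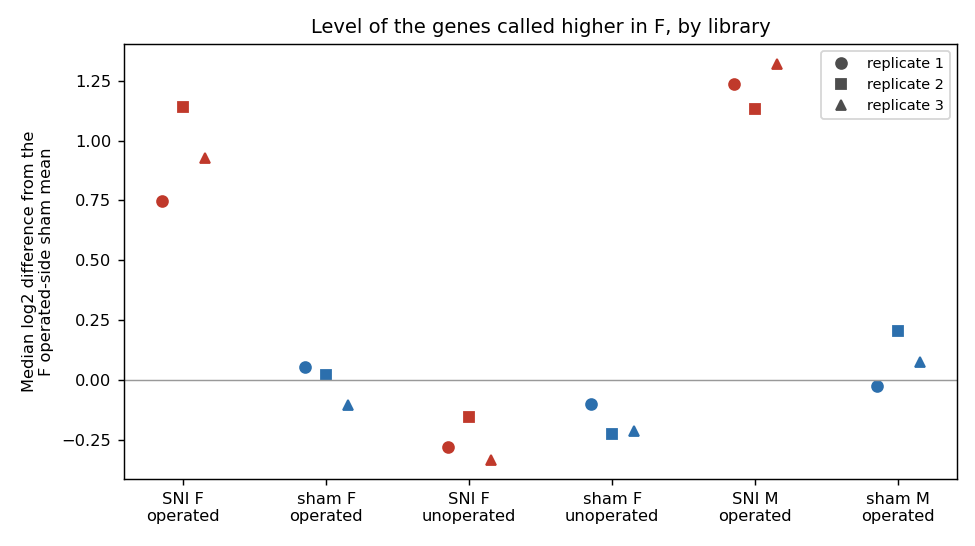
Median over the 71 genes called higher in F of each library's log2 level minus the mean of the operated-side sham F libraries (vertical axis), for each library of 6 groups (horizontal axis, SNI in red, sham in blue). The operated-side SNI F libraries lie at 0.75 to 1.14, all above the operated-side sham F libraries at -0.11 to 0.05, the difference by which the genes were picked. The SNI M libraries lie at 1.13 to 1.32.

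Gpr84 (chromosome 15, 103308235 to 103310612, GRCm38, minus strand), a receptor of myeloid cells for medium-chain fatty acids, was at 1.78, 2.77 and 2.25 CPM in SNI F, against 0.705, 0.640 and 0.478 CPM in sham F. It rose by 1.80 ± 0.24 on the log2 scale (SE, limma adjusted p = 0.0023), a 3.47-fold difference, and its groups did not overlap. An antisense gene overlaps 39.5% of its exon length and the strand setting of the authors' counting is not stated, so reads of the 2 genes cannot be told apart. Lag3 (chromosome 6, 124904361 to 124911705, minus strand), an inhibitory receptor known from T cells and also read from microglia in mice, was at 8.99, 13.6 and 12.8 CPM in SNI F, against 3.59, 3.91 and 4.2 CPM in sham F, and rose by 1.57 ± 0.17 (limma adjusted p = 0.00062). The T cell genes Cd3e and Cd4 were at most at 0.215 CPM in any of the 6 libraries. Itgam, the CD11b subunit of complement receptor 3, was at 51, 74.6 and 64.8 CPM in SNI F, against 28.7, 23 and 22.8 CPM in sham F. It rose by 1.34 ± 0.13 (limma adjusted p = 0.00068), with 68.7% of its exon length shared with a predicted gene on the same strand. Its partner subunit gene Itgb2 was at 11, 10.8 and 11.1 CPM in SNI F and 10, 7.38 and 5.46 CPM in sham F, and was not called (0.57 ± 0.17, limma adjusted p = 0.31).

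Of 17 genes of microglial identity, 12 rose and 0 fell, with a median log2 fold change of 0.85. Tmem119, a microglial membrane protein, was at 26.3, 36 and 28.9 CPM in SNI F and at 17.2, 15.4 and 14.2 CPM in sham F (0.95 ± 0.13). The fractalkine receptor gene Cx3cr1 was at 62.4, 91.6 and 81.7 CPM in SNI F and at 42, 43.2 and 43.6 CPM in sham F (0.85 ± 0.13). Olfml3, a secreted olfactomedin-like protein, rose by 1.06 ± 0.11 and Fcrls, an Fc receptor-like gene, by 1.11 ± 0.12. Aif1, which encodes the microglial stain IBA1, was at 5.57, 7.93 and 5.72 CPM in SNI F, against 2.79, 3.95 and 1.88 CPM in sham F, a rise of 1.19 ± 0.23 that passed narrowly (limma adjusted p = 0.0495) and was called in 6 of 16 alternative fits. In each of these genes the lowest SNI F library lay above the highest sham F library. The 5 members not called were P2ry12 (0.65, limma adjusted p = 0.061), Slco2b1 (0.54), P2ry13 (0.58), Sall1 (0.17) and Sparc (-0.17), and of these P2ry12, the ADP receptor of resting microglia, had 30.3, 47.2 and 39.8 CPM in SNI F and 25.3, 24.5 and 23.8 CPM in sham F. The transcription factor gene Sall1 overlapped, at 42.8, 55.4 and 50.4 CPM in SNI F and 45.1, 42.4 and 44.5 CPM in sham F.

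**Figure D2:**
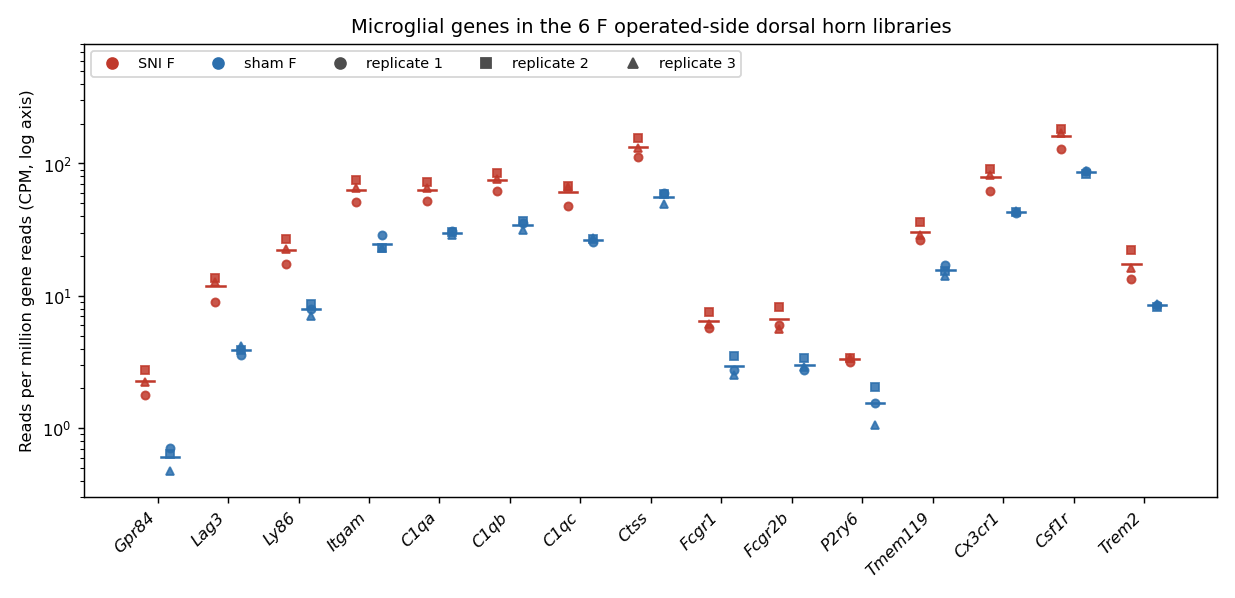
Level of 15 microglial genes in each of the 6 operated-side F libraries, in CPM on a log axis, with SNI F in red left of sham F in blue; the marker shape gives the library and the short line the group mean. In all 15 the SNI F libraries lie above the sham F libraries, and SNI F library 1 is often the lowest of its group, as for Lag3 at 8.99 CPM.

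The receptor of the CSF1 pathway rose, while the ligand did not pass the test. Csf1r was at 128, 183 and 171 CPM in SNI F, against 88.1, 83 and 88.3 CPM in sham F, a rise of 0.88 ± 0.12 (limma adjusted p = 0.0033) with no overlap. Csf1 was at 36.5, 60.3 and 49.8 CPM in SNI F, against 46.2, 42.9 and 40.4 CPM in sham F (0.15 ± 0.14, limma adjusted p = 0.78), with SNI F library 1 below all 3 sham F libraries. Il34, the other ligand of the receptor, was at 23.5, 23.4 and 25.7 CPM in SNI F and 18.1, 20.9 and 21.9 CPM in sham F (0.26 ± 0.11, limma adjusted p = 0.55). The second riser among the 6 genes of this list was Csf3r, the receptor of granulocyte colony-stimulating factor (0.94 ± 0.14, limma adjusted p = 0.0045). Csf3r is also the only member of the neutrophil list that rose, while the defining neutrophil genes S100a8 and S100a9 were at 0.458 to 1.92 CPM in SNI F and at 0.649 to 55.5 CPM in sham F.

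Of 17 genes of Fc receptors and their signalling chain, 9 were called higher, 0 lower and 8 did not pass, and the median was 0.81. The IgG receptor gene Fcgr1 was at 5.75, 7.56 and 6.12 CPM in SNI F and 2.76, 3.52 and 2.53 CPM in sham F, and the inhibitory Fcgr2b at 6.06, 8.25 and 5.65 CPM in SNI F and 2.73, 3.38 and 2.90 CPM in sham F. Both rose, by 1.13 ± 0.16 and 1.12 ± 0.16, with no overlap between groups. Downstream, the adaptor genes Tyrobp (0.81 ± 0.13) and Fcer1g (0.64 ± 0.12), the lipid phosphatase gene Inpp5d (0.84 ± 0.13) and the exchange factor gene Vav1 (0.83 ± 0.13) rose as well. Trem2, a lipid-sensing receptor that signals through Tyrobp, was at 13.5, 22.1 and 16.2 CPM in SNI F and 8.49, 8.27 and 8.74 CPM in sham F (0.99 ± 0.16, limma adjusted p = 0.012). The kinase gene Syk, which acts below these receptors, overlapped between groups, with sham F library 1 the highest of the 6 at 9.32 CPM.

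In the complement list the rise lay in the initiating C1q complex. C1qa (chromosome 4, 136895917 to 136898803, minus strand) was at 52.3, 71.9 and 65.5 CPM in SNI F, against 30.8, 30.3 and 28.9 CPM in sham F, and rose by 1.06 ± 0.11 (limma adjusted p = 0.00062). Its neighbours C1qc (136889804 to 136893065) and C1qb (136880129 to 136886187), which encode the other chains of C1q, rose by 1.18 ± 0.12 and 1.10 ± 0.12. The sham F libraries of all 3 genes lay within a few CPM of each other, and none reached the SNI F libraries. The remaining 12 tested members were not called. They include the central component C3 (28.5, 33.7 and 28.1 CPM in SNI F, against 39.6, 36.4 and 28.3 CPM in sham F), the anaphylatoxin receptor C3ar1 (0.56 ± 0.18) and C4b (0.23 ± 0.13). The median of the list was 0.23.

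Among pattern-recognition genes, 3 of 15 rose, with a median of 0.70. Ly86 (chromosome 13, 37345208 to 37419036, plus strand), the MD-1 partner of the receptor CD180, was at 17.3, 26.7 and 22.6 CPM in SNI F, against 7.97, 8.64 and 7.10 CPM in sham F, and rose by 1.47 ± 0.15 (limma adjusted p = 0.00062). Unc93b1, which carries nucleic-acid-sensing Toll-like receptors to the endosome, rose by 0.74 ± 0.11. Tlr2, a receptor for bacterial lipoproteins, was at 5.09, 6.63 and 6.06 CPM in SNI F and 3.25, 4.11 and 3.48 CPM in sham F (0.70 ± 0.14, limma adjusted p = 0.038). In 10 of the 15 genes all SNI F libraries lay above all sham F libraries, against 7.14% of all genes. Tlr13 (0.87 ± 0.18), Cd180 (0.88 ± 0.21) and Tlr9 (1.03 ± 0.25) were among those with higher SNI F values that did not pass.

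Of the interleukin-1, TNF and inflammasome genes, 2 of 13 tested rose. Pycard, the adaptor ASC that links sensors to caspase-1, was at 2.42, 3.27 and 3.47 CPM in SNI F and 1.5, 1.55 and 0.990 CPM in sham F (1.15 ± 0.20, limma adjusted p = 0.015). Il10ra, a receptor chain of the anti-inflammatory interleukin-10, rose by 0.61 ± 0.10. The cytokines themselves were near the floor: Il1b was at 0 to 0.213 CPM in SNI F and 0.0683 to 0.368 CPM in sham F, and Tnf and Il6, at most 0.153 CPM in any of the 6 libraries, were too low to be tested.

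Of 11 tested chemokine and chemokine receptor genes, 2 rose, the fractalkine receptor gene Cx3cr1 among them, no ligand was called, and the median was 0.41. Ccl3, Ccl4 and Ccl5 were at most 0.370 CPM in any of the 6 libraries. Ccl2, which draws monocytes, was at 0.178, 0.506 and 0.471 CPM in SNI F and 0.153, 0.0914 and 0.0683 CPM in sham F (1.37 ± 0.38, limma adjusted p = 0.26).

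Of 9 genes of purine receptors and ectonucleotidases, 2 rose, and the median was 0.29. P2ry6, the UDP receptor tied to phagocytosis, was at 3.18, 3.38 and 3.40 CPM in SNI F, against 1.56, 2.03 and 1.06 CPM in sham F (1.12 ± 0.20, limma adjusted p = 0.019), and all 3 SNI F libraries had nearly the same level. The adenosine receptor gene Adora3 was at 1.17, 1.70 and 1.58 CPM in SNI F and 0.644, 0.525 and 0.785 CPM in sham F. Its rise (1.12 ± 0.23, limma adjusted p = 0.0496) was called in 2 of 16 alternatives, and 20.9% of its exon length is shared with Tmigd3. The ATP-gated channel genes P2rx4 (0.03 ± 0.10) and P2rx7 (0.06 ± 0.11), both much studied in pain, overlapped between groups.

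Of 16 lysosomal genes, 3 rose, with a median of 0.27. Ctss (chromosome 3, 95526786 to 95556403, plus strand), the cathepsin that cleaves fractalkine, was at 112, 157 and 132 CPM in SNI F, against 59.4, 59.2 and 49.1 CPM in sham F (1.25 ± 0.14, limma adjusted p = 0.0021). Laptm5, a lysosomal membrane protein of blood and microglial cells, rose by 0.85 ± 0.15. The other 13 members did not pass: the cathepsin gene Ctsb was at 666, 702 and 716 CPM in SNI F and 660, 643 and 674 CPM in sham F, and Lamp1 overlapped as well.

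Genes that mark phagocytes around plaques and in degeneration stayed mostly below the threshold. Of 18 such genes 2 were called, Trem2 and Tyrobp, and the median was 0.15. Apoe, a lipid carrier, was at 1400, 1390 and 1340 CPM in SNI F and 1180, 1240 and 1210 CPM in sham F (0.19 ± 0.07, limma adjusted p = 0.49). Spp1, the secreted protein osteopontin, was at 31.4, 56.7 and 45.2 CPM in SNI F and at 148, 55.8 and 59.5 CPM in sham F. Cst7, a cystatin, was at 0.458, 0.452 and 0.337 CPM in SNI F, against 0.184, 0.137 and 0.102 CPM in sham F (1.25 ± 0.33, limma adjusted p = 0.22), with no overlap at under 1 CPM.

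Of 14 transcription factor genes of microglia, 2 rose. Irf8, which drives the reactive programme in mice, was at 8.58, 12.1 and 10.9 CPM in SNI F and 6.16, 5.53 and 4.85 CPM in sham F (0.92 ± 0.13). Spi1, which encodes the lineage factor PU.1, was at 3.36, 6.31 and 6.29 CPM in SNI F and 3.19, 2.99 and 2.39 CPM in sham F (0.84 ± 0.25, limma adjusted p = 0.33), with SNI F library 1 close to the sham F libraries. The list's median was 0.32.

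Of the 71 rises, 36 belong to 11 microglial and immune lists and 35 to no list. Among those in no list, Bin2, a membrane-bending protein of leukocytes, was at 10, 16.3 and 13 CPM in SNI F and 6.13, 5.83 and 4.68 CPM in sham F (1.21 ± 0.19). Ltc4s, the synthase of leukotriene C4, was at 2.77, 4.28 and 3.50 CPM in SNI F and 1.78, 1.48 and 1.20 CPM in sham F (1.21 ± 0.20). Rbm47, an RNA-binding protein, was at 0.967, 1.09 and 1.21 CPM in SNI F and 0.337, 0.571 and 0.341 CPM in sham F (1.30 ± 0.26, limma adjusted p = 0.037, called in 6 of 16 alternatives). Named after their values were seen, the same group held the phospholipase D family gene Pld4 (0.99 ± 0.10), the macrophage pore protein gene Mpeg1 (at 51.4, 73 and 64.8 CPM in SNI F and 33.2, 32.5 and 28.3 CPM in sham F), the sialic-acid lectin gene Cd33 (1.06 ± 0.14), the F4/80 antigen gene Adgre1 (1.11 ± 0.16), the lysosomal mannosidase gene Man2b1 (0.42 ± 0.07) and the progranulin gene Grn (0.49 ± 0.08).

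Of the markers of border macrophages and monocytes, 0 of 13 were called and the median was -0.21. Their summed level was 68.2, 69.7 and 60.7 CPM in SNI F and 91, 69.7 and 56 CPM in sham F. The mannose receptor gene Mrc1 was at 5.49 to 7.64 CPM in SNI F and 3.86 to 6.53 CPM in sham F, and Cd163 at 3.17 to 4.33 CPM in SNI F and 2.97 to 4.84 CPM in sham F. The monocyte gene Ly6c2 was at 0 to 0.135 CPM in SNI F and 0.0341 to 1.87 CPM in sham F. Cell cycle genes were not called (0 of 20, median -0.16).

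The 2 genes that fell are not microglial markers. Nr5a2 (chromosome 1, 136842571 to 136960448, minus strand), a nuclear receptor best known from liver and pancreas, was at 0.356, 0.373 and 0.236 CPM in SNI F, against 1.29, 0.8 and 1.26 CPM in sham F, and fell by 1.61 ± 0.27 on the log2 scale (limma adjusted p = 0.0085). All SNI F libraries lay below all sham F libraries. Its log2 fold change lay between -1.82 and -1.26 in the 16 alternative fits, 10 of which called it. With the motor neuron level as a covariate, which left 1 of the 73 calls, it was -1.26 ± 0.41 (limma adjusted p = 0.75). Insig1, which retains the sterol-sensing machinery in the endoplasmic reticulum, was at 105, 111 and 116 CPM in SNI F and 131, 134 and 135 CPM in sham F, and fell by 0.27 ± 0.06 (limma adjusted p = 0.0496, called in 3 of 16 alternatives).

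Atf3 and Sprr1a, injury genes of axotomised neurons, split the SNI F libraries. Atf3, a transcription factor gene induced in cut neurons, was at 1.02, 36.2 and 15.2 CPM in SNI F, against 1.13, 1.14 and 1.09 CPM in sham F. Sprr1a, a protein of regrowing axons, was at 0.229, 47.3 and 20.4 CPM in SNI F, against 0.613, 0.0457 and 0.171 CPM in sham F. SNI F library 1 lay at the sham level for both genes and the other 2 libraries far above it, so neither was called (2.83 ± 1.07 and 4.68 ± 1.71, limma adjusted p = 0.51 and 0.50). C1qa was at 52.3 CPM in SNI F library 1 against 28.9 to 30.8 CPM in sham F. It is 1 of the 71 genes, all of which separated the groups, so this is no separate support for a microglial rise in library 1. The 17 microglia identity genes, 12 of them called, had a median log2 level of 0.57 over the sham F mean there. Their summed level was 1760 CPM, within the 1640 to 1870 CPM of sham F. The receptor gene Gpr151 was at 1.12, 3.83 and 2.69 CPM in SNI F and 0.490, 0.594 and 0.649 CPM in sham F (1.88 ± 0.42, limma adjusted p = 0.13), and the neuropeptide gene Gal at 8.48, 18.6 and 10.3 CPM in SNI F and 5.73, 7.04 and 6.28 CPM in sham F (0.89 ± 0.28). Both separated the groups, with library 1 again the lowest of SNI F. Of 20 tested members of the axon injury list, 0 were called and the median was 0.33. In 9 of the 20 every SNI F library lay above every sham F library, against 7.14% of all genes.

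**Figure D3:**
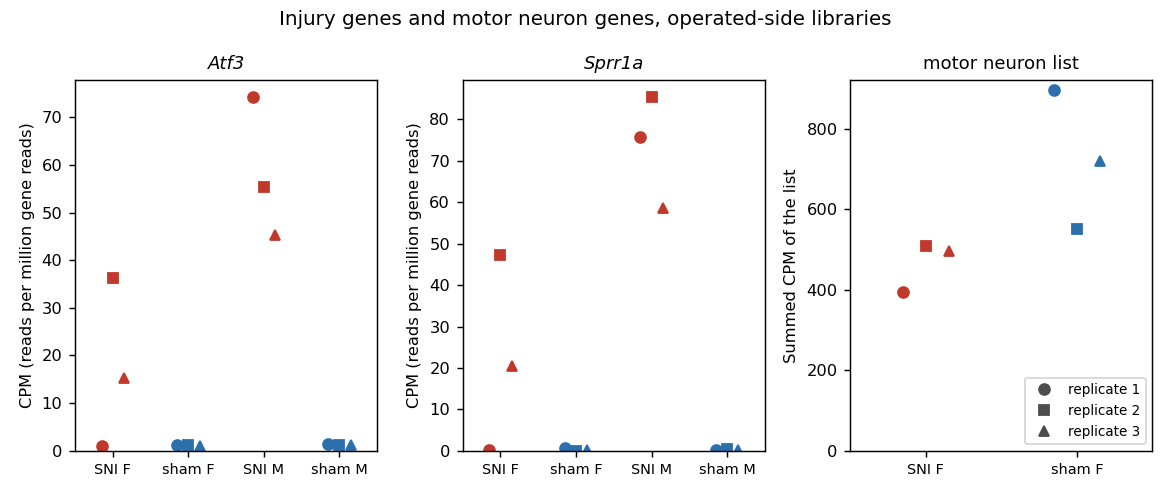
Atf3 and Sprr1a in CPM in each operated-side library of SNI F, sham F, SNI M and sham M, and the summed CPM of 15 motor neuron genes in SNI F and sham F (all vertical axes start at 0, marker shape gives the library). SNI F library 1 lies at the sham level for Atf3 (1.02 CPM) and Sprr1a (0.229 CPM), and the motor neuron sums are lower in the SNI F libraries (395 to 508 CPM) than in the sham F libraries (550 to 897 CPM).

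Motor neuron genes had the lowest median of any list of neurons, and none passed the test. All 15 had a negative log2 fold change (-4.29 to -0.11, median -1.59). In 10 of the 15 every SNI F library lay below every sham F library, which held for 7.2% of all genes. Chat, which makes acetylcholine, was at 3.69, 7.40 and 5.69 CPM in SNI F, against 28.3, 10.2 and 14.9 CPM in sham F (-1.59 ± 0.55, limma adjusted p = 0.48). The motor neuron fate gene Mnx1 was at 0.153, 0.160 and 0.0673 CPM in SNI F and 3.37, 0.891 and 1.5 CPM in sham F (-3.24 ± 0.77, limma adjusted p = 0.19). On the unoperated side the same list had a median of 0.54, and in males on the operated side -0.05. Because motor neurons lie in the ventral horn, next to the tissue that was dissected, the amount of ventral tissue in a library and the level per motor neuron cannot be told apart.

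Neurons of the dorsal horn itself gave no calls. Of 18 excitatory and 14 inhibitory marker genes, 0 and 0 were called, with medians of 0.22 and 0.16. In 3 of the 18 and 7 of the 14 every SNI F library lay above every sham F library, against 7.14% of all genes. The reverse order held for 0 in both lists. The summed levels of excitatory genes were 1080, 1000 and 999 CPM in SNI F and 901, 1000 and 997 CPM in sham F. Those of inhibitory genes were 1640, 1520 and 1700 CPM in SNI F and 1530, 1540 and 1710 CPM in sham F. The sums of both lists overlapped between groups. The opioid precursor gene Penk was at 196, 172 and 183 CPM in SNI F and 139, 157 and 154 CPM in sham F (0.29 ± 0.11, limma adjusted p = 0.50). Its groups did not overlap, and it did not pass.

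Targets of pain drugs were not called either (0 of 23, median 0.06). In 5 of the 23 every SNI F library lay above every sham F library, against 7.14% of all genes. In 2 every SNI F library lay below, against 7.2%. Cacna2d1, the channel subunit bound by gabapentin, was at 175, 169 and 141 CPM in SNI F and 116, 140 and 134 CPM in sham F (0.32 ± 0.11, limma adjusted p = 0.42), with no overlap. The mu-opioid receptor gene Oprm1 was at 8.43, 7.58 and 8.85 CPM in SNI F and 8.03, 7.74 and 10.1 CPM in sham F, overlapping. The delta-opioid receptor gene Oprd1 was at 7.36, 8.36 and 9.32 CPM in SNI F and 11.1, 10.3 and 11.3 CPM in sham F (-0.38 ± 0.12, limma adjusted p = 0.37). Inhibitory receptors and chloride transport (0 of 21), glutamate receptors (0 of 20) and voltage-gated channels (0 of 25) had medians of -0.05, 0.09 and 0.08. In these 3 lists, in that order, all SNI F libraries lay above all sham F libraries in 1, 2 and 5 genes, and below in 3, 2 and 1.

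Of 17 genes of reactive astrocytes 0 were called, and the median was 0.03. In 2 of the 17 every SNI F library lay above every sham F library, against 7.14% of all genes. Gfap, the astrocyte filament, was at 1250, 1460 and 1270 CPM in SNI F and 1260, 1300 and 1060 CPM in sham F (0.14 ± 0.18). Serpina3n, a protease inhibitor of reactive astrocytes, was at 38.7, 56.3 and 46.2 CPM in SNI F and 48.7, 41.9 and 43.7 CPM in sham F (0.06 ± 0.12). In both genes SNI F library 2 was the highest of the 6 and neither of the other SNI F libraries lay above all sham F libraries.

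**Figure D4:**
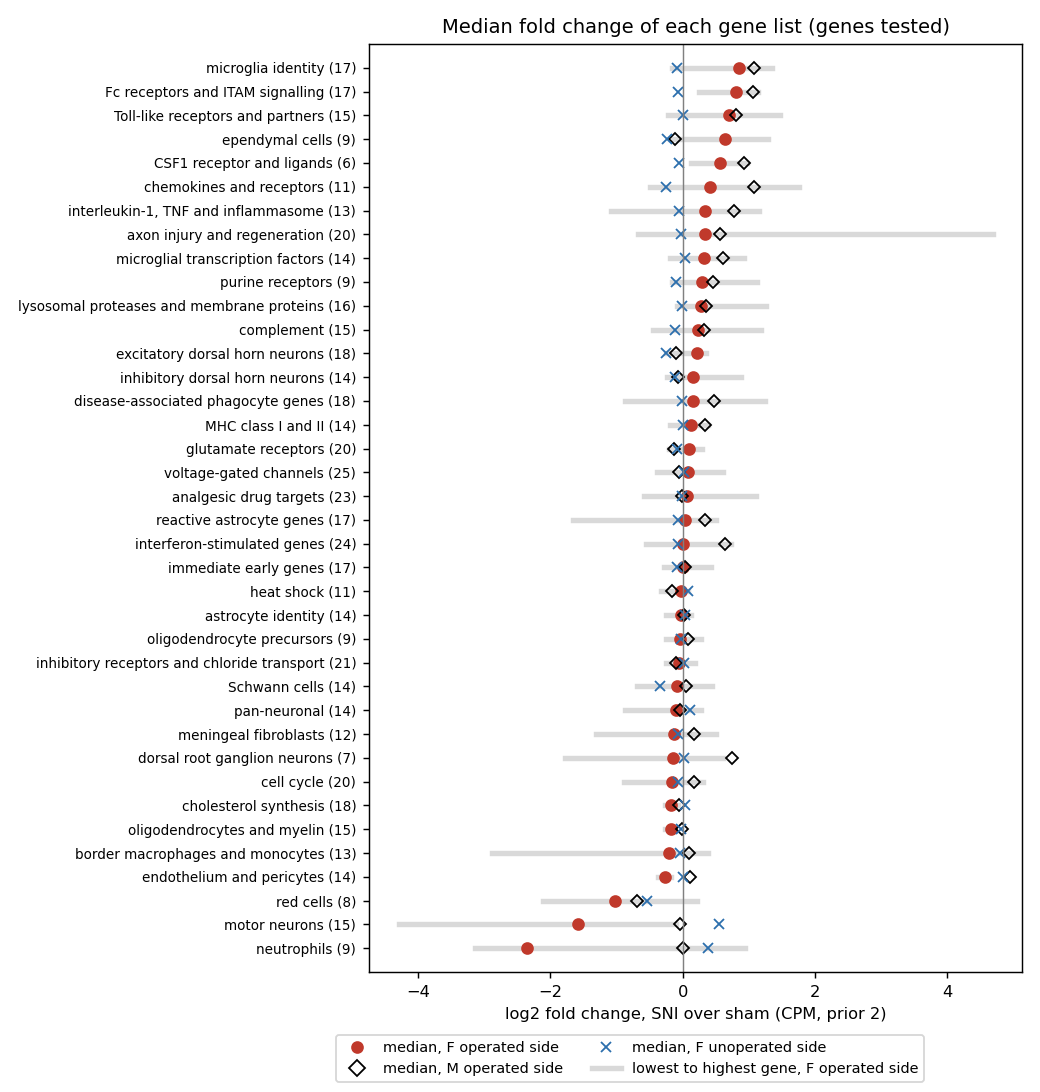
Median log2 fold change (SNI over sham) of each gene list with at least 5 tested genes, for the operated side in F (red circles), the operated side in M (open diamonds) and the unoperated side in F (blue crosses), with grey bars from the lowest to the highest gene in F. Microglia identity is at the top with 0.85 in F and 1.07 in M, interferon-stimulated genes lie near 0 in F and at 0.64 in M, and motor neurons are at -1.59 in F.

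The same contrast in males asked whether the response differed by sex. The F and M comparisons share no library. Both came from the same fit, however, which pooled each gene's variance over the operated-side F and M libraries. The overlap of their calls is therefore not an overlap of independent tests. With the 6 F operated-side libraries fitted alone, 57 genes were called in F, and 51 of the 73 F calls were kept. In M, limma called 344 genes higher (1.95%) and 19 lower (0.108%), and 69 of the 73 F calls were among them, 94.5% of the F calls and 19% of the M calls. The 4 F calls not made in M were Nr5a2, Insig1, Rbm47 and Tlr2. All 71 genes that rose in F had a positive log2 fold change in M, larger there in 60, with medians of 0.94 in F and 1.11 in M. The 344 genes called higher in M had a median of 0.45 in F and 0.89 in M, and 325 of them were above 0 in F. A lower count of calls in F is not a test of a difference. In the test of the difference itself, limma called 0 genes (0%), with a smallest adjusted p of 0.34 and 1793 genes at an unadjusted p under 0.05 (10.2%). With voom weights limma also called 0 (1808 unadjusted). SNI M libraries 2 and 3 are titled 49 and 51 and the sham M libraries 33, 37 and 39, while library 3 is titled 55 in SNI F and 53 in sham F. M effects and F minus M differences, here and below, therefore cannot be fully told apart from title number. With a title-number covariate limma called 0 genes (1306 unadjusted). Among the 71 F rises 9 had an unadjusted p under 0.05 for the difference, and their median difference, F minus M, was -0.19.

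The interferon-stimulated genes had a median difference between F and M of -0.60. None of 24 was called in F and 7 were called higher in M, against 1.95% of all genes. The medians were -0.0036 in F and 0.64 in M. The difference, F minus M, was negative in 24 of 24, and 15 had an unadjusted p under 0.05, against 10.2% of all genes. The share of all genes with a negative difference was not computed. Some other lists were one-signed too: 15 of 15 motor neuron, 15 of 15 oligodendrocyte and 14 of 14 endothelial and pericyte genes were negative. Of 20 glutamate receptor genes, 11 had an unadjusted limma p under 0.05, and 4 of the 20 were negative. Neither trait is therefore particular to the interferon list. Irf7 (chromosome 7, 141262706 to 141266481, minus strand), the regulator that amplifies interferon output, was at 2.29, 3.35 and 2.76 CPM in SNI F, against 2.45, 2.79 and 3.14 CPM in sham F, which overlap. In males it was at 6.25, 4.81 and 4.63 CPM in SNI M, against 2.10, 1.80 and 1.83 CPM in sham M, which do not. Its effects differed by -1.42 ± 0.24 on the log2 scale, the smallest p of all genes for this difference (limma adjusted p = 0.34). The restriction factor gene Bst2 was at 3.69, 5.85 and 4.37 CPM in SNI F and 3.62, 4.96 and 3.41 CPM in sham F, and at 7.37, 6.69 and 6.57 CPM in SNI M and 3.32, 3.70 and 3.20 CPM in sham M (difference -0.79 ± 0.24). None of these differences passed the adjustment, and the uneven title numbers of the M libraries bear on them too.

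**Figure D5:**
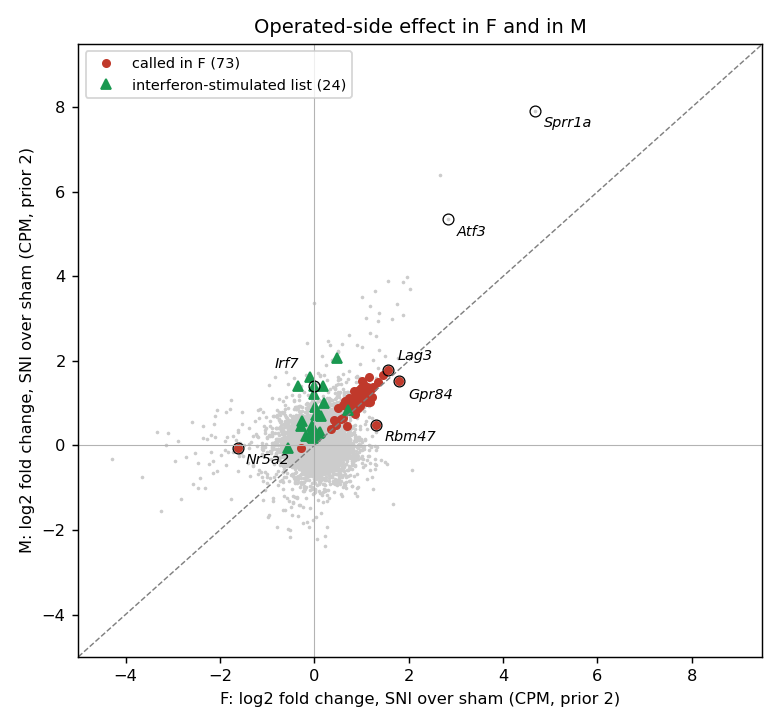
Log2 fold change (SNI over sham, operated side) in F on the horizontal axis and in M on the vertical axis for 17602 genes (grey), with the 73 genes called in F (red) and 24 interferon-stimulated genes (green triangles); the dashed line marks equal change. Most F rises lie above the line (60 of 71 larger in M), and Irf7 lies at 0 in F and 1.41 in M.

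Beside Irf7, the genes with the smallest p for the sex difference were Malat1, Myadm, Eepd1 and an identifier with no matched symbol. Malat1, a nuclear noncoding RNA, was at 675, 664 and 575 CPM in SNI F and 549, 677 and 515 CPM in sham F, and at 590, 541 and 534 CPM in SNI M and 798, 851 and 758 CPM in sham M (difference 0.68 ± 0.13). Myadm, a membrane protein gene linked to myeloid differentiation, was at 42.5, 52.5 and 47 CPM in SNI F and 43.7, 41.7 and 45.5 CPM in sham F, and at 67.1, 66.5 and 61.6 CPM in SNI M and 41.7, 43.6 and 39.9 CPM in sham M (difference -0.52 ± 0.10). Both overlapped between the F groups and separated the M groups. Eepd1, a nuclease gene, was at 23.1, 22.7 and 20.6 CPM in SNI F and 17.7, 18.3 and 18.2 CPM in sham F, with all SNI M libraries below all sham M libraries (difference 0.57 ± 0.11).

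Atf3 and Csf1 were lower in every SNI F library than in any SNI M library. Atf3 was at 74.2, 55.3 and 45.3 CPM in SNI M, against 1.49, 1.32 and 1.22 CPM in sham M, and the difference of its effects, F minus M, was -2.52 ± 1.51. Csf1 was at 67.1, 66.7 and 73.6 CPM in SNI M and 39.3, 47.4 and 41.6 CPM in sham M, with a difference of -0.54 ± 0.20, and SNI F library 2, at 60.3 CPM, came nearest to the SNI M values. Neither difference passed the adjustment.

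The unoperated side of female mice asked whether the change was local. There limma called 0 genes between SNI F and sham F (0%, with 498 at an unadjusted p under 0.05), and the 71 genes called on the operated side had a median log2 fold change of -0.06, with 21 of 71 above 0. The difference between the operated and unoperated effects was called for 44 of 18058 genes (0.244%), larger on the operated side for 43 and lower for Nr5a2. Of the 44, 40 were also called on the operated side alone, an overlap partly built in because the difference contains that same effect. C1qc was at 22.3, 22.9 and 22.7 CPM in SNI F and 25.7, 22.5 and 22.8 CPM in sham F on the unoperated side, overlapping, where the operated side separated the groups. Of 17 microglia identity genes 12 were called for the side difference. Leaving out a library of the operated side gave 22 to 68 calls, 68 without SNI F library 1, 22 without SNI F library 2, 27 without SNI F library 3 and 24 without sham F library 3, and the 12 F libraries fitted alone gave 23.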

How the data were processed

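The deposited tables give, per library, the number of reads the authors counted on each gene, whole numbers with no normalization. Reads were aligned with STAR (version not stated), and GRCm38 and mm10 are the mouse builds listed, per the submitters' processing notes. Which program counted reads, on which annotation and with which strand setting is not given in the sources used here. Entries of the counter that name no gene were left out of library sizes and tests: in the 6 libraries they were 13.5% to 15.8% in no feature, 9.92% to 11.4% not unique and 0.395% to 0.409% ambiguous, which left 73.5% to 75.8% on genes.

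The counts were tested with limma on the log2 CPM scale, and a negative binomial count test was not run. Libraries were scaled by trimmed means of M-values (30% of ratios and 5% of levels trimmed, factors 0.971 to 1.03). Genes with about 10 reads in at least 3 libraries and 15 in all were kept. Log2 CPM with a prior count of 2 was fitted by group in limma 3.58.1 (R 4.3.3; trend, robust empirical Bayes), over the 12 operated-side mouse libraries (8 residual degrees of freedom) or, for the side difference, all 24 (16). Tests were two-sided and adjusted by Benjamini-Hochberg over all genes, with calls at an adjusted p under 0.05. Errors of fold changes are SE. Fold changes of low genes are understated by the prior count. On simulated counts for the F comparison, 86% of genes changed by 2-fold and 42% of those changed by 1.5-fold were called the right way among 17602 genes. For the sex difference the shares were 56% and 12%. Unchanged genes called were 9 in the F comparison and 7 in the sex difference. The simulation gave every gene the same dispersion, which real genes do not share. Chi-square of counts within a group was 9.69 to 15.3 per degree of freedom, so no library was treated as a duplicate.

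Members of the comparison and the 40 gene lists were chosen with earlier results of these data known. Of 564 listed genes, 562 were in the files and 535 were tested. Named genes are the 15 largest rises and up to 10 largest falls among called genes with at least 1 CPM in the higher group, the 5 smallest p of each difference test, and list members. Symbols were matched for 40254 of 41388 identifiers. Positions are from the GENCODE M21 annotation. Libraries are numbered in accession order. Figures were drawn with Python 3.11.15 and matplotlib 3.10.9. The rat libraries were not analysed here. Some genes that the rules name are not reported here.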

Additional observations from a re-analysis of the deposited data

Results flagged for a closer look

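The effect of nerve injury in female mice differed between the operated and the unoperated side for 44 genes by limma's test of the difference itself. The 5 with the smallest p were larger on the operated side by 1.19 for C1qb, 1.24 for C1qc, 1.34 for Ctss, 1.15 for C1qa and 1.32 for Fgd2 on the log2 scale. On the unoperated side C1qb was at 27.1, 31.5 and 26.6 CPM in SNI F and 31.4, 28.7 and 30.5 CPM in sham F. Ctss there was at 41.4, 48.9 and 44.7 CPM in SNI F and 53.4, 47.3 and 43.7 CPM in sham F, again overlapping. Fgd2, an exchange factor gene for the small GTPase CDC42, was at 8.81, 13.1 and 10.1 CPM in SNI F and 5.03, 5.16 and 5.05 CPM in sham F on the operated side. On the unoperated side it was at 3.73, 3.79 and 3.48 CPM in SNI F and 4.64, 4.65 and 4.09 CPM in sham F, with all SNI F libraries the lower.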

How the results depend on the processing

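The labels give no replicate numbers and tie no library to an animal, so SNI and sham libraries could not be paired. Chosen after seeing the data, a replicate block that pairs operated and unoperated libraries of adjacent title numbers gave 196 calls for the side difference (139 higher, 57 lower), with 44 of the original 44 kept. Deviations from the group means correlated at 0.04 to 0.30 within the 6 F pairs, over 0.1 in 5, and 11 of 12 mouse libraries of the operated side correlated best with their own pair, a hint from the data and not from the design. All 73 genes called in F kept their sign in 16 alternative fits. Among the called and listed genes, 0 changed sign where either the first fit or the alternative called them. Uncalled genes could change sign, as with Csf1 (-0.01 to 0.35) and Chat (-1.92 to 0.29). Against 73 calls, median-of-ratios scaling gave 72, total gene counts 91, no filter 74, voom weights 64, a prior count of 0.5 70, the 6 F libraries alone 57, all 24 mouse libraries 86 and a covariate for title numbers 74. Without the libraries titled 49 to 56, which leaves 2 libraries in each F group, 0 were called (smallest adjusted p 0.19), and with the motor neuron covariate 1 was, so 0 genes were called in every alternative; the cause was not tested. The fit without titles 49 to 56 also lost SNI M libraries 2 and 3, so its pooled variance rested on fewer libraries. Leaving out single F libraries gave 42 to 108 calls. Without sham F library 1, the highest in neutrophil, motor neuron and fibroblast genes, 73 genes rose and 0 fell, and 58 of the 73 original calls were kept. The sex difference had 0 calls in all 14 alternatives (smallest adjusted p 0.068 to 1). The side difference, 44 in the first fit, gave 46 with median-of-ratios scaling, 30 with voom, 23 with the 12 F libraries alone and 22 to 68 on leaving out single libraries. With 3 libraries a group, changes under 2-fold were often missed in simulated counts, and genes under 1 CPM rest on few reads. For the sex difference, simulated 2-fold changes were often missed as well, so 0 calls there do not show equal effects.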

Other observations

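Genes of cholesterol synthesis had small negative values in female mice. All 18 had a log2 fold change between -0.27 and -0.07 (median -0.18), and in 11 every SNI F library lay below every sham F library, which held for 7.2% of all genes. Only Insig1 was called. The squalene epoxidase gene Sqle was at 80.1, 89.3 and 85.8 CPM in SNI F and 97.4, 97.7 and 98.2 CPM in sham F (-0.20 ± 0.06, limma adjusted p = 0.26). In males the median was -0.06, and 7 of the 18 sex differences had an unadjusted p under 0.05, against 10.2% of all genes. Genes of oligodendrocytes and myelin had a median of -0.18 in F with 0 of 15 called, and in 1 of the 15 every SNI F library lay below every sham F library. A link between these lists was not tested.

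Endothelial and pericyte genes were all below 0 in F (14 of 14, median -0.26) with 0 called, and their summed level was 438, 560 and 533 CPM in SNI F and 639, 570 and 634 CPM in sham F. In 6 of the 14 every SNI F library lay below every sham F library, against 7.2% of all genes. In males the median was 0.11, and 7 of the 14 sex differences had an unadjusted limma p under 0.05, against 10.2% of all genes. Ependymal genes had a median of 0.63 in F with 0 of 9 called. Ccdc153, a gene of cilia, was at 7.84, 1.09 and 5.35 CPM in SNI F and 1.53, 1.76 and 1.30 CPM in sham F, so SNI F libraries 1 and 3 were high and library 2 was the lowest of the 6.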
